A study of Mus musculus with 18 samples.

Results

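The fibroblast growth factor (FGF) signaling genes of the mouse were compared between embryonic neural tube and embryonic pancreas. The set held the FGF ligands, their receptors and co-receptors, the adaptors that carry the signal inward, and the genes that the signal turns on to restrain itself. Members were found by gene symbol and not by expression, which gave 44 of the 23228 genes in the expression table. They comprised 18 secreted ligands, 4 intracellular FGFs, 4 receptors, 7 other components and 11 feedback targets.

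The study asked how the transcription factor Ptf1a runs different programs in the developing pancreas and neural tube. For neural tube, cells positive for GFP were sorted from E12.5 ICR embryos with a 2.3Ptf1a-GFP transgene. In this transgene the autoregulatory enhancer of Ptf1a, 2.3 kb long, and a beta-globin basal promoter drive GFP. Sorted cells are therefore those in which this enhancer had been active, after trypsin dissociation. The pancreas sample was whole, unsorted ICR pancreas at E15.5, and the labels give the genotype of both samples as WT. Each sample was named for 2 libraries, but 1 FPKM value per gene and tissue was deposited. FPKM scales the fragments of a gene by transcript length and by sequencing depth, so levels of different genes can be compared. Values given as a pair are in the order neural tube, pancreas, and differences are neural tube minus pancreas. With no replicate, no SD or p-value can be given and no difference below could be set against replicate spread.

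FGF ligands bind receptor tyrosine kinases of the cell surface together with heparan sulfate chains, and the activated receptor signals through the docking proteins Frs2 and Frs3 to Ras and the kinase ERK. ERK signaling turns on ETS factors of the Etv4 and Etv5 group and inhibitors such as the Sprouty proteins and the phosphatase Dusp6, so the levels of these genes are widely read as a record of pathway activity. In the pancreas, Fgf10 from the mesenchyme acts through Fgfr2 on epithelial progenitors. In the neural tube, FGFs keep caudal progenitors undifferentiated, and Fgf15 is made by neural progenitors.

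Tissue markers matched the labels. Neural tube was higher, by the rule given below, for all 7 neuronal markers found and for 6 of 7 neural progenitor markers. Each of these markers reached 5 FPKM in at least 1 sample, where 10.3% of all such genes were higher in neural tube. The neuronal list summed to 1534 FPKM in neural tube against 28.6 in pancreas. Acinar markers summed to 46551 FPKM in pancreas and 0.943 in neural tube, with Clps, Pnlip and Prss2 listed at 0 in neural tube. Ptf1a itself stood at 22.5 FPKM (neural tube) and 37.1 FPKM (pancreas). The steps among the lowest values put 1 fragment per kb of transcript at about 0.0426 FPKM in neural tube and 0.0249 in pancreas. Read as depth, pancreas was sequenced about 1.71 times as deeply, an estimate that assumes like scaling of the samples and rests on no read counts. A value below about 0.128 FPKM in neural tube or 0.0747 in pancreas rests on fewer than 3 fragments per kb. An exact 0 may also be a failed estimate, since the translation factor subunit Eif3j was listed at 0 in neural tube and at 47.1 in pancreas.

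The promoters of the 4 intracellular FGFs are shown because these genes all had higher values in neural tube, followed by those of Klb and Fgfbp1, which had the most negative differences of the set. Sequences are the 250 bases before the 5′-most start in the RefSeq table (GRCm38.p6), which had an entry for 34 of the 44 genes. Which start was used in these cells is not given by gene-level values. Capitals mark matches, on either strand, to CAGCTG (an E-box, the kind of site that basic helix-loop-helix factors such as Ptf1a bind), TGGGAA (the core bound by Rbpj, its partner) or CCGGAA (a core bound by ETS factors). In order, the stretches lie at chr11:69802281-69802530, chr16:28753244-28753493, chrX:59585573-59585822, chr14:124192547-124192796 (all on the minus strand), chr5:65348161-65348410 (plus strand) and chr5:43981800-43982049 (minus strand).
Fgf11: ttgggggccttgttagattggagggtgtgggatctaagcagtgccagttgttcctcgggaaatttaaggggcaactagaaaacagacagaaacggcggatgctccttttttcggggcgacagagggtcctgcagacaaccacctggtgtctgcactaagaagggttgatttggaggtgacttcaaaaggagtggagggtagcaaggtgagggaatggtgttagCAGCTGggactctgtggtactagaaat
Fgf12: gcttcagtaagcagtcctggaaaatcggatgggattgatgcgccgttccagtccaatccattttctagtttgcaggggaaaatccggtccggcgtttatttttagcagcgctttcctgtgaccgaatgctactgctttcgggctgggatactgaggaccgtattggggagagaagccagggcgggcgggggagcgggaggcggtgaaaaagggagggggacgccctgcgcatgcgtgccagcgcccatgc
Fgf13: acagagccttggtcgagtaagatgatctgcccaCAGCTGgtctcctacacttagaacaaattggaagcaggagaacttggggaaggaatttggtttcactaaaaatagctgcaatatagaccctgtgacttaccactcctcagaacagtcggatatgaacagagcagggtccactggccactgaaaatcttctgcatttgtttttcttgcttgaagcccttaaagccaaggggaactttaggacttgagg
Fgf14: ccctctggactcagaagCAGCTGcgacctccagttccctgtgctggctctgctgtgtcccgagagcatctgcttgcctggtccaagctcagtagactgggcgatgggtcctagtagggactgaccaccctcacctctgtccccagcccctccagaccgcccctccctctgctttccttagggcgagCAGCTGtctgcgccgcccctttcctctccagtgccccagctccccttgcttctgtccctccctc
Klb: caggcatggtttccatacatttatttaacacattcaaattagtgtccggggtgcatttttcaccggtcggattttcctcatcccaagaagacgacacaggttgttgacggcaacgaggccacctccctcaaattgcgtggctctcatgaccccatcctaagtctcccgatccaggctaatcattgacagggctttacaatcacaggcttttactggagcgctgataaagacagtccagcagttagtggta
Fgfbp1: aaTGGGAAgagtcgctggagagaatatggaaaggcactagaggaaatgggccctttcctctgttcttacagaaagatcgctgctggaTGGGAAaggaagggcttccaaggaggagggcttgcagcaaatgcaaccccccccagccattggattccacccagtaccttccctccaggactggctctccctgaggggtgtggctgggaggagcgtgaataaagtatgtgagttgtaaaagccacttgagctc
CAGCTG was present in the stretches of Fgf11 (1 match), Fgf13 (1) and Fgf14 (2) and in none of the other 3 shown. Of all 27025 promoters of this length, 12.7% held it, and among the 34 members with an entry 6 did (17.6%). Members not shown that held it were Etv5, with the higher value in pancreas, and Fgf22 and Fgfr3, with higher values in neural tube. Frs3, with a higher value in neural tube, had no match, and Fgf15 had no entry. Fgf3, Fgfbp3, Spred2, Spred3, Fgfr2 and Frs2, also with higher values in neural tube, held no CAGCTG either. Of members with higher values in pancreas, Etv1, Fgf10 and Spry1 were among those without it. TGGGAA occurred at 2 places before Fgfbp1, in 6 of the 34 members (17.6%) and in 21.5% of all promoters. CCGGAA occurred in 4 of the 34 (11.8%) and in 12.3% of all. A match describes the letters and not a site in use.

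Fgf15 was the FGF gene that separated the samples most. To be called higher, a gene needed a difference in log2(FPKM + 1) of 2 or more, which is 4 times, and a level of 5 FPKM or more where it was higher. Genes that reached 5 FPKM in both tissues with a ratio below 2 were called similar. Among the 18 members that reached 5 FPKM in at least 1 sample, 3 were higher in neural tube (Fgf15, Fgf13 and Frs3), 16.7% where 10.3% of all 10744 such genes were. In pancreas 0 members were higher, where 11.9% of all such genes were. Among the 8 members that reached 5 FPKM in both tissues, 7 were similar, beside 65.9% of all 7037 such genes. All 3 calls were lost with a pseudocount of 5 FPKM, and Fgf15 alone was called at 8 times. With so few members, these shares are read as counts and not as a difference from the other genes. Over the 30 members that reached 1 FPKM in at least 1 sample the median difference was 0.13, beside -0.07 for all 14303 such genes.

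**Figure D1:**
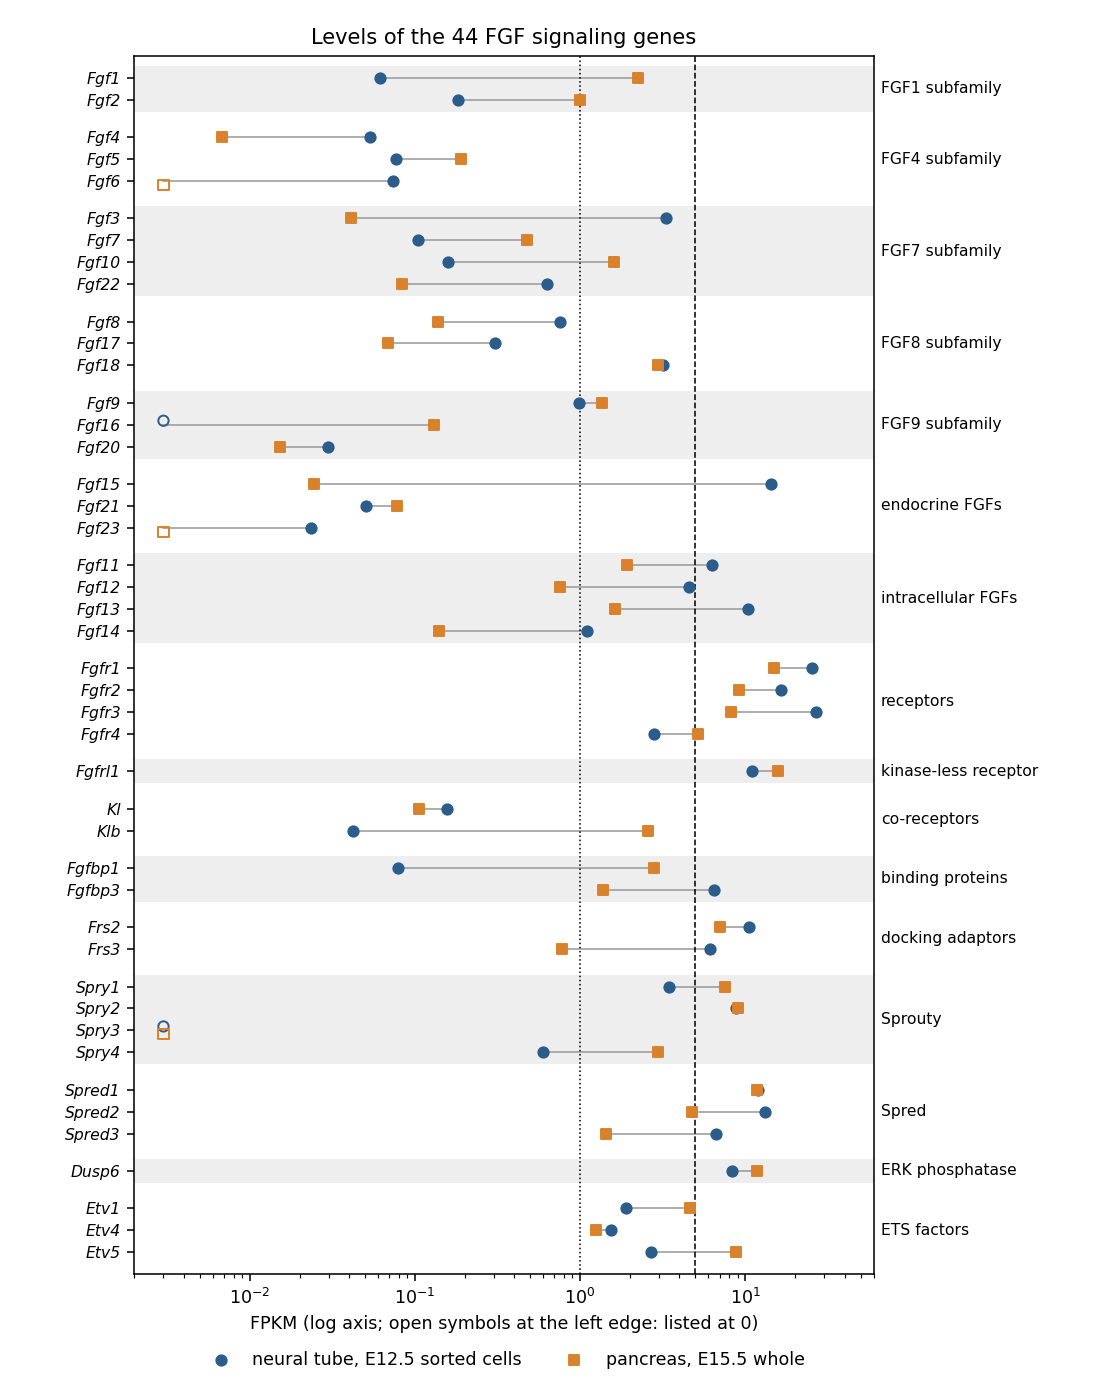
FPKM of each of the 44 genes in the neural tube sample (circles) and the pancreas sample (squares) on a log axis, grouped by role, with a dotted line at 1 FPKM and a dashed line at 5 FPKM. Each point is 1 deposited value with no error, and receptors, adaptors and feedback genes lie mostly above 1 FPKM while 12 of the 18 secreted ligands lie below it in both samples.

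Secreted ligands were mostly at low levels in both samples. Of 18 secreted ligands, 12 were below 1 FPKM in both samples, and 1, Fgf15, reached 5 FPKM in either. Summed, the ligands came to 24.3 FPKM (neural tube) and 10.4 FPKM (pancreas). Fgf15 supplied 59.1% of the neural tube sum, followed by Fgf3 with 13.5% and Fgf18 with 13%. The pancreas sum was spread over Fgf18 (28.5%), Fgf1 (21.5%), Fgf10 (15.46%), Fgf9 (13%) and Fgf2 (9.56%).

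Fgf15, the mouse counterpart of human FGF19 and a hormone of the intestine after birth, was at 14.4 FPKM in neural tube against 0.0244 in pancreas. The pancreas value corresponds to about 1.77 fragments on its longest annotated transcript, so no ratio is given. On the log2(FPKM + 1) scale the difference was 3.91, the largest of the 44. It depends on the pseudocount, at 6.87 with 0.1 FPKM and 1.95 with 5 FPKM, because the pancreas value is near 0. Of all members in neural tube, Fgfr3, Fgfr1 and Fgfr2 alone had a higher level than Fgf15. The other hormone-like FGFs, Fgf21 and Fgf23, were below 0.1 FPKM in both samples, with Fgf23 listed at 0 in pancreas.

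In the FGF7 subfamily, whose classic members carry signals from mesenchyme to epithelium, the genes pointed in both directions. Fgf10 was at 0.159 FPKM (neural tube) and 1.61 FPKM (pancreas), 10.1 times as much, with about 15.3 and 266 fragments behind the values. Its relative Fgf7 was at 0.105 and 0.479 FPKM in the same order. Fgf3, an early developmental ligand of this subfamily, was instead at 3.29 FPKM in neural tube against 0.0409 in pancreas, a difference of 2.04 that stayed uncalled because neither value reached 5 FPKM. Fgf22 was at 0.630 and 0.0836 FPKM, so that Fgf3 and Fgf22 had higher values in neural tube and Fgf7 and Fgf10 in pancreas, with 0 of the 4 called. The lower values rest on few fragments, about 3.78 for Fgf3 and 1.89 for Fgf22 in pancreas and 6.56 for Fgf7 in neural tube.

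Mesenchyme markers moved in the same direction as Fgf7 and Fgf10. Of 13 such markers 11 reached 5 FPKM in at least 1 sample. Among these, pancreas was higher for 8 and neural tube for 0, where 11.9% and 10.3% of all such genes were. Of the 13, 0 were listed at 0 in either sample, and the list summed to 525 FPKM (neural tube) and 1636 FPKM (pancreas). Vim, which neural progenitors also express, made up 477 of the neural tube sum, while the proteoglycan gene Dcn was at 0.660 FPKM in neural tube against 175 in pancreas. The part of mesenchyme in the 2 ligand differences was not tested. Neural tube cells had been sorted for GFP, while pancreas was whole and unsorted. With 1 value per gene and tissue, fewer cells of a type and less RNA per cell cannot be told apart.

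The FGF1 subfamily, whose proteins lack a classical signal peptide, also had higher values in pancreas, below the level for a call. Fgf1 was at 0.0611 FPKM (neural tube) and 2.23 FPKM (pancreas), a difference of -1.61, and Fgf2 was at 0.182 and 0.995 FPKM. The neural tube values rest on about 5.71 fragments for Fgf1 and 5.30 for Fgf2, so no ratio is given. Markers of endothelium, a tissue on which Fgf2 is known to act, leaned to pancreas. Of 8 genes 7 reached 5 FPKM in at least 1 sample. Pancreas was higher for 6 of these and neural tube for 0, where 11.9% and 10.3% of all such genes were. Of the 8, 0 were listed at 0 in either sample. That list summed to 19.3 FPKM in neural tube against 135 in pancreas, and its part in the Fgf2 difference was not tested.

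Fgf18 and Fgf9 were at like levels in the samples. Fgf18 had 3.16 FPKM (neural tube) and 2.96 FPKM (pancreas), and Fgf9 had 0.989 and 1.35, a direction that turned with rescaling to equal totals. Fgf8 and Fgf17, close relatives of Fgf18 that organise the midbrain and hindbrain border, were low at 0.752 and 0.307 FPKM in neural tube against 0.138 and 0.0689 in pancreas. Fgf4, Fgf5, Fgf6, Fgf16 and Fgf20 stayed below 0.2 FPKM in both samples, with Fgf6 listed at 0 in pancreas and Fgf16 in neural tube.

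Fgf3, Fgf4 and Fgf15 are neighbours on chromosome 7, an observation made after their values were seen. On NCBIM37, the same build as mm9, Fgf3 spans 152023988 to 152030341, Fgf4 begins 16950 bases further on, and Fgf15 (152082437 to 152086858) begins 31289 bases after Fgf4 ends. Fgf4, between the others, had 0.0535 FPKM in neural tube against 0.00681 in pancreas, so the outer genes were readable in neural tube while the middle one was near the lower limit in both samples. On the far side of Fgf15, Oraov1 was at 12.9 and 8.58 FPKM and the cyclin gene Ccnd1 at 76.0 and 37.3. Those 2 genes overlap on opposite strands, and reads in the overlap may be shared between them.

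**Figure D2:**
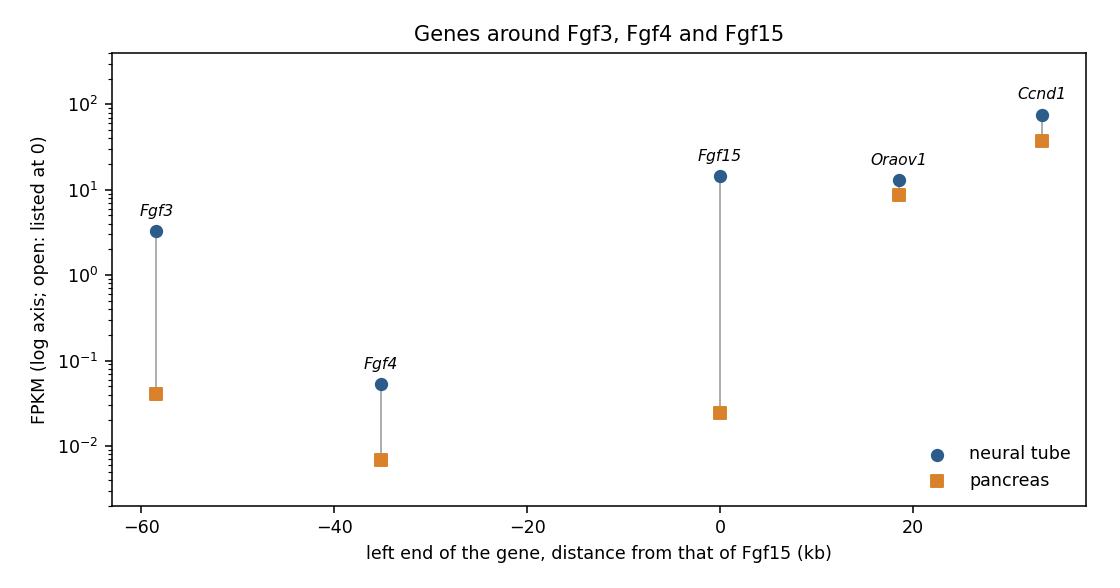
FPKM (log axis) of the 5 table genes lying within 250000 bases of Fgf15, placed by the distance in kb of their left ends from that of Fgf15, for neural tube (circles) and pancreas (squares). Fgf15 (14.4 FPKM) and Fgf3 (3.29 FPKM) are above 1 FPKM in the neural tube sample and near 0 in pancreas, Fgf4 is near 0 in both, and Oraov1 and Ccnd1 are expressed in both samples.

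All 4 intracellular FGFs had higher values in neural tube, and 1 of them, Fgf13, passed the size rule. These proteins, also called FGF homologous factors, are not secreted and do not act through FGF receptors in the usual way, but bind the voltage-gated sodium channels of excitable cells. Fgf13 (NCBIM37 chromosome X, 56315322 to 56821248, minus strand) was the highest at 10.4 FPKM (neural tube) and 1.64 FPKM (pancreas), a ratio of 6.37 and a difference of 2.12. Fgf11 was at 6.32 and 1.94 FPKM, Fgf12 at 4.55 and 0.759, and Fgf14 at 1.11 and 0.141. Their differences of 1.32, 1.66 and 0.88 were under the threshold, and all 4 kept their sign under the 2 other pseudocounts and the 5 rescalings. Summed, the intracellular genes had 22.4 FPKM in neural tube against 4.48 in pancreas, with the ranking of Fgf11 and Fgf13 exchanged between the samples.

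Proteins that bind these factors include sodium channels and a kinase scaffold. Neural tube was higher for 3 of 7 listed partners and pancreas for 0. These were the 3 that reached 5 FPKM in either sample, where 10.3% and 11.9% of all such genes were called. The median difference of the 5 at 1 FPKM or more was 2.29. The scaffold gene Mapk8ip2 was at 41.0 FPKM (neural tube) and 1.52 FPKM (pancreas). The sodium channel genes Scn3a and Scn8a were at 12.5 and 5.58 FPKM in neural tube, against 0.302 and 0.342 in pancreas. Neuronal markers were higher in neural tube for all 7 genes found. Each reached 5 FPKM in at least 1 sample, where 10.3% of all such genes were higher in neural tube. Of the 7, 0 were listed at 0 in either sample, and what neuron content contributed to the FGF homologous factors was not tested.

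All 4 receptor genes were expressed in both samples, in different proportions. Fgfr1 was at 25.5 FPKM in neural tube against 15.0 in pancreas, Fgfr2 at 16.4 and 9.18, Fgfr3 at 26.8 and 8.25, and Fgfr4 at 2.79 and 5.17. Fgfr1 and Fgfr2 were similar, with differences of 0.73 and 0.77, although both lost that call under the 3 rescalings to equal totals, to the housekeeping list and without the most abundant genes, and within 1.5 times. Fgfr3 (NCBIM37 chromosome 5, 34064373 to 34079716, plus strand), which marks neural progenitors and later astrocytes, differed by 1.59, a ratio of 3.24, and passed the threshold with rescaling to equal totals. Fgfr4 was the 1 receptor with a higher value in pancreas, a difference of -0.70.

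As a share of the summed receptor FPKM, a share that rescaling a sample leaves as it is, Fgfr3 made up 37.5% in neural tube and 22% in pancreas. Fgfr1 made up 35.7% and 39.9%, Fgfr2 22.9% and 24.4%, and Fgfr4 3.91% and 13.8%. The order was Fgfr3, Fgfr1, Fgfr2, Fgfr4 in neural tube and Fgfr1, Fgfr2, Fgfr3, Fgfr4 in pancreas, and with no replicate the small steps between Fgfr1 and Fgfr3 in neural tube and between Fgfr2 and Fgfr3 in pancreas cannot be ranked. The 4 receptors together had 71.4 FPKM (neural tube) and 37.6 FPKM (pancreas).

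Gene-level values do not separate the splice forms of Fgfr1, Fgfr2 and Fgfr3, in which the IIIb form, typical of epithelia, and the IIIc form, typical of mesenchyme and neural tissue, bind different ligands. Among 5 listed splicing regulators, pancreas was higher for 2 and neural tube for 2. All 5 reached 5 FPKM in at least 1 sample, where 11.9% and 10.3% of all such genes were called. Esrp1 and Esrp2, which promote the IIIb form of Fgfr2 in epithelia, were at 0.165 and 0.0613 FPKM in neural tube and at 22.9 and 13.8 in pancreas. Rbfox2 was at 76.0 FPKM in neural tube against 15.3 in pancreas, and Ptbp2, the neuronal relative of Ptbp1, at 60.7 and 12.9. Ptbp1 was similar at 103 and 137 FPKM, a direction that turned with rescaling to equal totals.

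Co-receptors and binding proteins each held 1 gene with a higher value in pancreas. Klb, which encodes beta-Klotho and lets FGF21 and FGF15 act on their receptors, was at 0.0419 FPKM in neural tube, about 3.41 fragments, and at 2.58 in pancreas. Its difference was -1.78. Kl, the partner of Fgf23, was at 0.155 and 0.106 FPKM. Fgfbp1, a secreted carrier that releases FGFs from the matrix, was at 0.0791 FPKM in neural tube, about 2.15 fragments, and at 2.81 in pancreas, a difference of -1.82. Its relative Fgfbp3 ran the other way with 6.48 FPKM (neural tube) and 1.38 FPKM (pancreas), a difference of 1.65. Fgfrl1, a receptor without the kinase domain, was the highest member in pancreas at 15.8 FPKM and was similar in neural tube at 11, its direction turning with rescaling to equal totals. Epithelial markers separated the samples in the same sense as Klb and Fgfbp1. All 8 reached 5 FPKM in at least 1 sample. Pancreas was higher for 7 and neural tube for 0, where 11.9% and 10.3% of all such genes were. Of the 8, 0 were listed at 0, and the sums were 30.4 FPKM in neural tube against 1313 in pancreas. The part of these markers in the differences of Klb and Fgfbp1 was not tested.

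Of the docking adaptors, Frs2 was similar and Frs3 was higher in neural tube. Frs2, the adaptor that links FGF receptors to Grb2 and Ptpn11, was at 10.5 FPKM (neural tube) and 7.0 FPKM (pancreas). Frs3 (NCBIM37 chromosome 17, 47825979 to 47841235, plus strand) was at 6.15 and 0.777 FPKM, a ratio of 7.91, and its difference of 2.01 lay just past the threshold. That call was lost with rescaling to the upper quartile, where the difference was 1.98, and with rescaling to the median ratio, which left it just under the threshold.

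**Figure D3:**
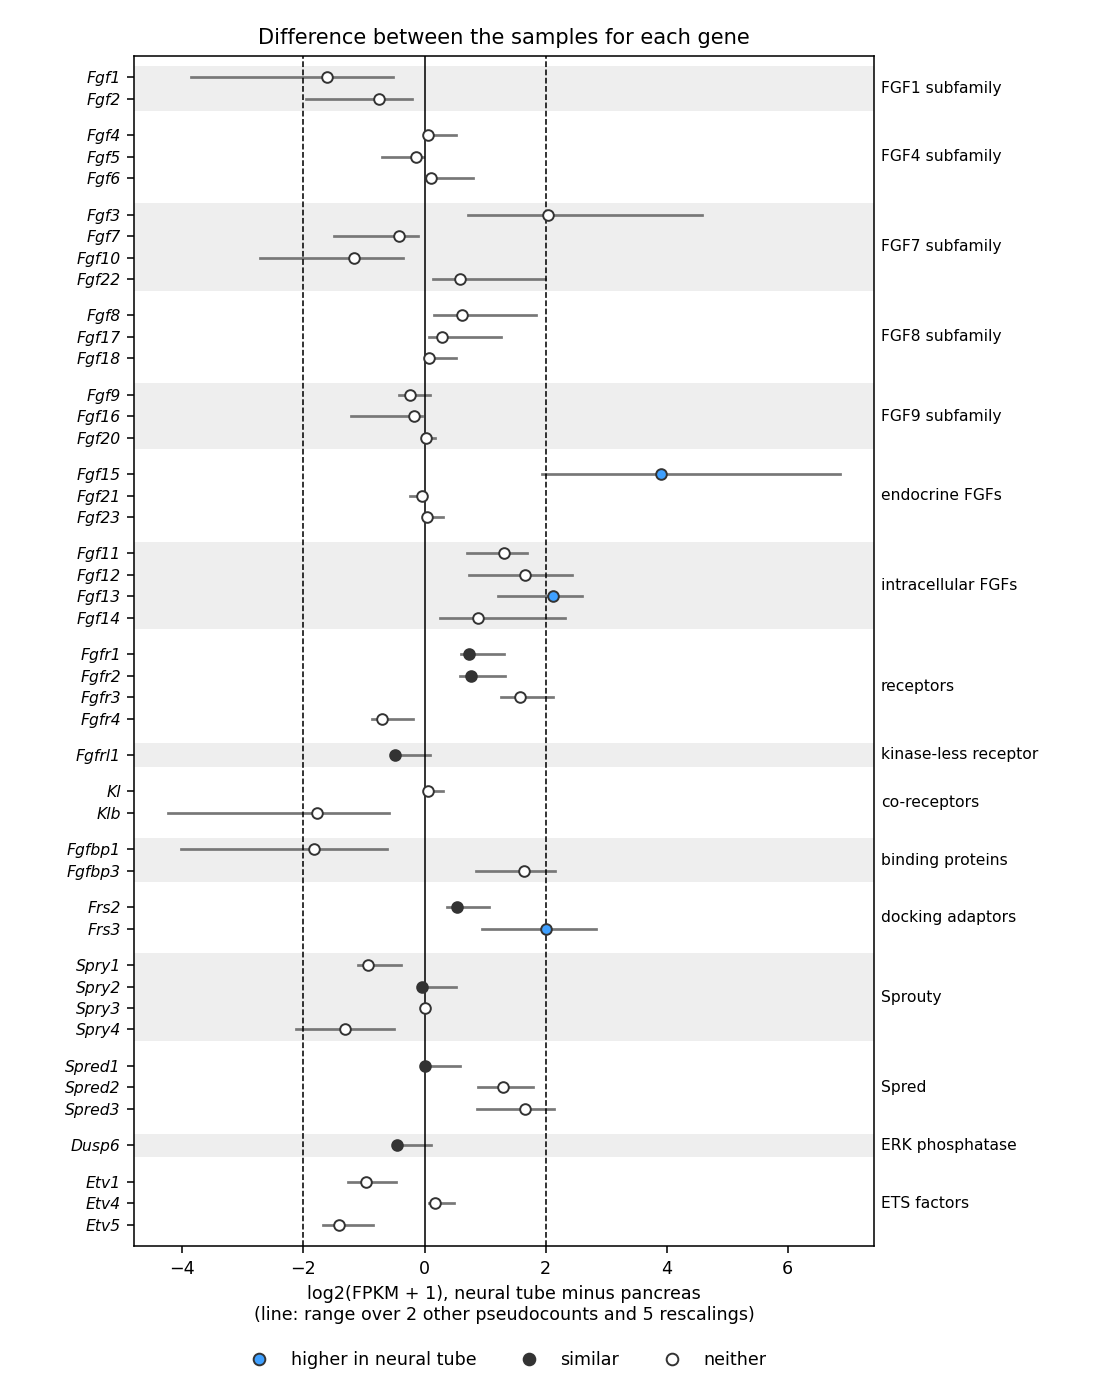
Difference in log2(FPKM + 1), neural tube minus pancreas, for each of the 44 genes, with a line for the range over 2 other pseudocounts and 5 rescalings and dashed lines at the threshold of 2 in each direction. Fgf15, Fgf13 and Frs3 pass the threshold to the right with at least 5 FPKM, Fgf3 passes it below that level, and 0 genes pass it to the left at the reported setting.

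Of the 11 feedback targets 0 passed the threshold in either direction. Only 7 reached 5 FPKM in at least 1 sample and could be called. Among all such genes the calls came to 10.3% toward neural tube and 11.9% toward pancreas. With 7 genes, 0 calls is read as a count and not as a difference from the other genes. All 3 that reached 5 FPKM in both tissues were similar, beside 65.9% of all such genes. Of the 7 that reached 5 FPKM in at least 1 sample, 3 had the higher value in neural tube and 4 in pancreas. Spry2 was at 8.78 FPKM in neural tube against 9.03 in pancreas, Spred1 at 12 and 11.9, and Dusp6 at 8.33 and 11.8. These were the similar genes, and the sign of each turned under at least 1 rescaling, for Dusp6 with equal totals alone. Summed over the 11 genes the samples had 59.1 and 64.1 FPKM. Their median difference, over the 10 at 1 FPKM or more, was -0.25.

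The Sprouty genes, inhibitors of receptor tyrosine kinase signaling, had 0 members with a higher value in neural tube at the reported setting. Spry1 was at 3.47 FPKM (neural tube) and 7.52 FPKM (pancreas), and Spry4 at 0.597 and 2.95, 4.94 times as much. Spry3 was listed at 0 in both samples. The Spred genes, relatives that hold back Ras, ran the other way for Spred2, at 13.1 and 4.76 FPKM, and for Spred3, at 6.69 and 1.44. The difference of 1.65 for Spred3 passed the threshold with a pseudocount of 0.1 FPKM. Spry1, Spry4, Spred2 and Spred3 kept their signs under the 2 other pseudocounts and the 5 rescalings.

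Among the ETS factors, Etv5 (NCBIM37 chromosome 16, 22381382 to 22439792, minus strand) was at 2.70 FPKM in neural tube against 8.83 in pancreas, a difference of -1.41 and the lowest of the feedback targets. Etv1 was at 1.89 and 4.66 FPKM in the same direction. Etv4, the third member of the group and a usual companion of Etv5, was at 1.55 and 1.25 FPKM. Etv1 and Etv5 kept their sign under the same settings, and 0 of the 3 genes passed the threshold.

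Of the 22 Ras and ERK cascade genes found, which all receptor tyrosine kinases share, 20 reached 5 FPKM in at least 1 sample. Among the 20, 1 was called higher in pancreas and 0 in neural tube, where 11.9% and 10.3% of all such genes were. Of the 17 that reached 5 FPKM in both tissues 11 were similar, near the share of all genes (65.9%), and the median difference was 0.42. The called gene was Shc1, an adaptor, at 6.77 FPKM (neural tube) and 33.7 FPKM (pancreas). Plcg1, the phospholipase recruited directly by FGF receptors, was at 44.9 and 11.2 FPKM, a difference of 1.91. The smallest differences were those of Rasa1, at 11.4 and 10.8 FPKM, and Araf, at 39.0 and 35.1.

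Among 10 other feedback genes outside the member set, 5 reached 5 FPKM in at least 1 sample. Of these, neural tube was higher for 2 and pancreas for 1, where 10.3% and 11.9% of all such genes were. Dusp4, a nuclear phosphatase of ERK, was at 67.9 FPKM in neural tube against 1.84 in pancreas, a difference of 4.60. Cblb, which tags receptors for breakdown, was at 25.8 and 3.48 FPKM and its relative Cbl at 9.71 and 2.25. Flrt2, a membrane protein of the FLRT family that interacts with FGF receptors, was at 2.19 FPKM (neural tube) and 26.1 FPKM (pancreas). Lrig1 was similar at 14.2 and 9.22 FPKM.

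Heparan sulfate chains hold FGFs at the cell surface. Genes for their core proteins and for enzymes that make or modify the chains were 23. Of these, 19 reached 5 FPKM in at least 1 sample. Neural tube was higher for 1 of the 19 and pancreas for 3, where 10.3% and 11.9% of all such genes were. The median difference of the list was -0.27. Of the 14 at that level in both tissues 9 were similar, near the share of all genes (65.9%). Core proteins of the chains were 3 of the 4 called genes. Gpc2, a glypican of developing neurons, was at 189 FPKM in neural tube against 7.61 in pancreas. Gpc3 was at 43.6 FPKM (neural tube) and 346 FPKM (pancreas), and the syndecan Sdc4 at 2.02 and 25.0. Sulf1, which removes sulfate groups and so lowers FGF binding, was at 1.14 FPKM in neural tube against 26.5 in pancreas. The sulfotransferase genes Hs2st1, at 12.5 and 12.6 FPKM, and Ndst2, at 6.77 and 7.57, differed least, with signs that turned under some rescalings.

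**Figure D4:**
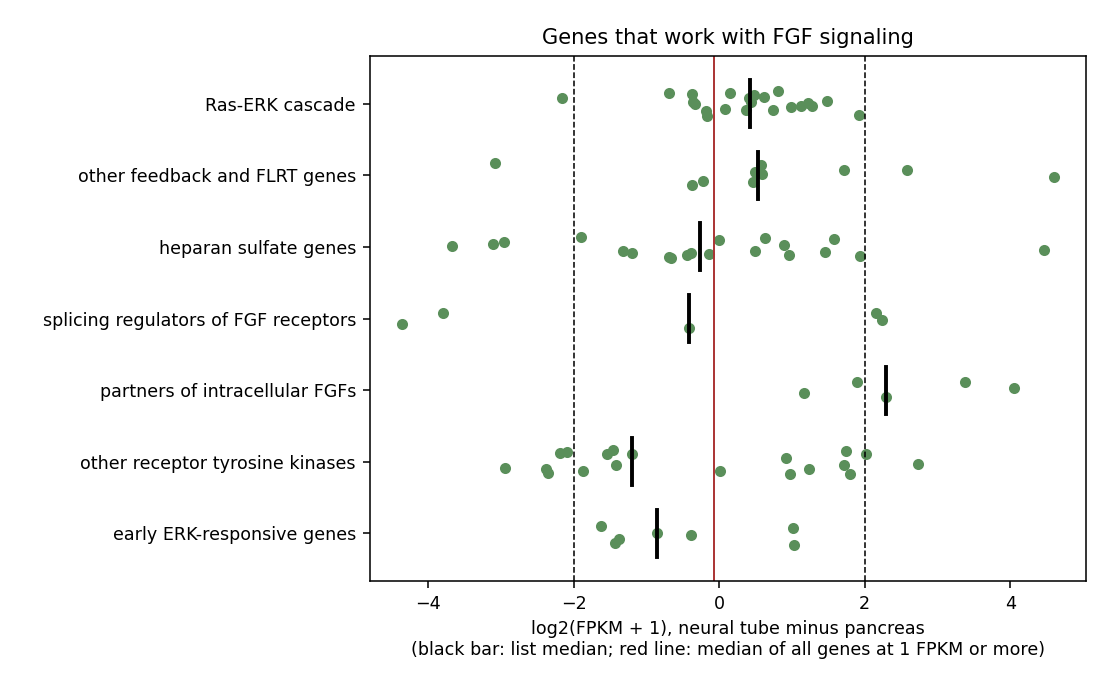
Difference in log2(FPKM + 1), neural tube minus pancreas, for each gene at 1 FPKM or more in either sample in 7 lists of genes that work with FGF signaling, with black bars at list medians, a red line at the median of all genes (-0.07) and dashed lines at 2 in each direction. In the Ras-ERK cascade 1 gene lies outside the dashed lines, while the partners of intracellular FGFs have the highest list median, 2.29.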

How the data were processed

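RNA was sequenced from GFP-positive neural tube cells and from whole pancreas, and the table the authors deposited gives 1 FPKM value per gene and tissue. CASAVA, TopHat, TopHat2 (2.0.4), Cuffdiff (2.0.2) and build mm9 are listed, per the submitters' processing notes, with no role or order. Annotation and filters were not given in the sources used here. Sorted cells were extracted with a column kit and pancreas with Trizol, per the labels' protocols, and the pancreas libraries are named under 2 preparation kits. Tissue, stage, sorting and extraction therefore cannot be told apart.

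Differences were taken on log2(FPKM + 1), neural tube minus pancreas, a scale that understates differences of low genes. Calls used the rules of size given above and are not tests. Medians used genes that reached 1 FPKM in at least 1 sample. Symbols were matched to GENCODE M1 on NCBIM37 (42 of 44 members had a single match). Depth was inferred from the commonest low value of FPKM multiplied by transcript length among genes with 1 transcript (160 genes in neural tube, 212 in pancreas). Fragments per gene assume the longest annotated transcript and are approximate.

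The alternatives were 2 pseudocounts, 2 minimum levels, 5 rescalings, 2 other fold thresholds and a stricter similarity. The text names every member, and of each pathway list the 2 largest and 2 smallest differences at 5 FPKM or more and up to 6 called genes. Members and lists were chosen with earlier results of these data known. Protein sequences planned for display were not used here. The other 16 samples of the series are not analysed here. Calculations used Python 3.11.15, pandas 2.3.3 and numpy 2.4.6.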

Additional observations from a re-analysis of the deposited data

How the results depend on the processing

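With 1 value per tissue, depth and replicate spread limit every statement. No paired analysis was possible because each tissue has 1 deposited value and no test was run. The number of members higher in neural tube, 3 as reported, was 5 with a pseudocount of 0.1 FPKM (Spred3 and Fgfbp3 added), 0 with one of 5 FPKM, 8 at a threshold of 2 times and 1, Fgf15, at 8 times. The number higher in pancreas was 0 except at a threshold of 2 times, where it was 1 (Etv5). The 7 similar members became 14 with no minimum, 3 with a minimum of 10 FPKM, 4 with rescaling to equal totals and 4 within 1.5 times. The median of the secreted ligands, -0.09 as reported over 6 genes, turned to 0.0271 with no minimum, 3.91 with a minimum of 10 FPKM (Fgf15 alone), 0.12 with housekeeping scaling, 0.51 with equal totals and 0.13 without the most abundant genes. The median of the feedback targets, -0.25, turned to 0.0145 with a minimum of 10 FPKM and to 0.0506, 0.30 and 0.0539 under the same 3 rescalings. Those rescalings moved the median of all genes at 1 FPKM in both samples from 0.02 to 0.29, 0.52 and 0.29, and the share of all calls toward neural tube from 46.4% to 58.0%, 67.0% and 58.2%. The receptor median of 0.75 kept its sign throughout, between 0.60 and 1.32.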

Other observations

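Other receptor tyrosine kinases use the same cascade and can raise the same feedback genes, and they differed between the samples in both directions. Of 19 such receptors 15 reached 5 FPKM in at least 1 sample. Among these, pancreas was higher for 5 and neural tube for 2, where 11.9% and 10.3% of all such genes were. Of the 6 at that level in both tissues 1 was similar, and the median difference of the list was -1.20. Toward pancreas, Csf1r, the receptor of macrophages, had 0.362 FPKM in neural tube against 9.49 in pancreas, and Kdr, of endothelium, was at 1.36 and 11.3. The collagen receptor Ddr2 was at 0.654 and 7.47 FPKM, Erbb3 at 0.762 and 7.07, and Ret at 2.27 and 13. Toward neural tube, Ddr1 was at 110 FPKM against 15.7, and the neurotrophin receptor Ntrk3, named after its values were seen, at 6.11 against 0.750. Erbb2 was at 6.86 and 6.85 FPKM, with a sign that turned under 2 rescalings, and Insr was at 12.3 and 5.78. Of 8 immune markers 7 reached 5 FPKM in at least 1 sample. Pancreas was higher for 6 of these and neural tube for 0, where 11.9% and 10.3% of all such genes were. Of the 8, 0 were listed at 0, with sums of 7.02 FPKM in neural tube against 228 in pancreas. The part of immune cells in the Csf1r difference was not tested.

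Of 9 early genes that ERK activity induces, 6 reached 5 FPKM in at least 1 sample and could be called. Among these 0 were called toward neural tube and 0 toward pancreas, where 10.3% and 11.9% of all such genes were. With 6 genes, 0 calls is read as a count and not as a difference from the other genes. The median difference was -0.85 over the 7 at 1 FPKM or more. Myc was at 5.57 FPKM in neural tube against 19.3 in pancreas, Fos at 3.27 and 10.5, and Egr1 at 4.22 and 8.42. Ccnd1, at 76.0 and 37.3 FPKM, and Ier2, at 37.3 and 17.7, had higher values in neural tube and were chosen for mention with their values known. The whole list summed to 139 and 113 FPKM in the same order. Phlda1 was at 11.3 and 15.1 FPKM, a direction that turned with rescaling to equal totals. Sorted cells had been trypsinised and whole pancreas was extracted in Trizol, and handling cannot be told apart from tissue for these genes.

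Markers of the remaining cell types fixed for the comparison were distributed as follows. All 8 endocrine markers reached 5 FPKM in at least 1 sample. Pancreas was higher for 6 and neural tube for 0, where 11.9% and 10.3% of all such genes were. Iapp, Ins1, Ins2 and Ppy were listed at 0 in neural tube. The endocrine sums were 161 FPKM in neural tube, led by Sst, and 2773 in pancreas, led by Ins2. Neural crest and Schwann markers summed to 22.1 FPKM in each sample, with 1 of 7 higher in neural tube and 2 in pancreas, and erythroid markers were higher in pancreas for 2 of 6 and summed to 6.63 and 110.9 FPKM.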
